A study of Mus musculus with 18 samples.

Results

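The genes Lamp1, Lamp2, Cd63, Cd68, Scarb2, Npc1, Npc2, Cln3, Laptm4a and Laptm5 code for lysosomal membrane proteins and for the proteins that carry cholesterol out of lysosomes. They were listed by name for that role, and all 10 were among the 11243 protein-coding genes of the count table. RAW264.7 cells, a mouse macrophage line, were studied in 3 states: given vehicle (DMSO, the control), stimulated for 6 h with 500 ng/mL of lipopolysaccharide (LPS), a bacterial cell wall component that macrophages sense, or given 100 nM torin1, an inhibitor of the kinase mTOR, 15 min before the same 6 h of LPS. The labels do not say for how long these control cells were kept in vehicle, and there were no cells with torin1 alone among the libraries used. From each lysate both total mRNA and polysome-associated mRNA, that is mRNA pooled from heavy polysomes and so carrying many ribosomes, were sequenced in 3 independent experiments numbered 1 to 3. This gave 18 libraries in 6 groups of 3, with 27800983 to 47725557 counts each, and the lowest count of any of the 10 genes in a library was 2028, for Scarb2.

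Levels are given as CPM (counts per 1000000 counts of the library) after scaling by the trimmed mean of M values (TMM), in the order of replicates 1, 2 and 3, with n = 3 libraries in every group. A difference was called when its FDR, the Benjamini-Hochberg adjusted p of edgeR's quasi-likelihood test over all 11243 genes, was at most 0.25, which is a lenient threshold, so the FDR itself stands beside each call. Log2 fold changes carry their standard error (SE). Groups whose libraries did not overlap were common over all genes. In total mRNA after LPS, 25.6% of all genes lay wholly above control and 28.3% wholly below. In polysome-associated mRNA these shares were 22.1% and 24.1%. With torin1 against LPS they were 22.2% and 19.8% in total and 15.8% and 16.8% in polysome-associated mRNA. With torin1 against control they were 30.2% and 31% in total and 22% and 24.8% in polysome-associated mRNA. The counts are relative within a library, so fewer cells and less RNA per cell cannot be told apart. The macrophage label held in the table, which carried 7 of 8 listed macrophage markers, with Lyz2 at 7589 ± 534 CPM (SD) and Csf1r at 2447 ± 104.6 CPM in control total mRNA. None of the 5 T cell, 4 B cell, 4 epithelial or 4 fibroblast markers was in it, and of 5 neutrophil markers only S100a8. In total mRNA it averaged 0.207 ± 0.0835 CPM in control, 3.89 ± 1.91 CPM after LPS and 2.17 ± 1.28 CPM with torin1 added, and on polysomes 0.358 ± 0.0932, 5.84 ± 1.66 and 3.86 ± 0.957 CPM; what this has to do with the results was not tested. A gene without a count in some library had been left out of the table. Among LPS response genes, Tnf averaged 257 ± 71.0 CPM in control and 2389 ± 415 CPM in LPS total mRNA.

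Lysosomes degrade what cells take up, and macrophages hold many of them because they feed on microbes and dying cells. Their limiting membrane is lined by the heavily glycosylated proteins LAMP1 and LAMP2, and it carries receptors and transporters that move enzymes in and products out. Cholesterol freed from lipoproteins is bound in the lumen by NPC2 and handed to NPC1 in the membrane for export, and mTORC1, a target of torin1, sits on the same membrane when nutrients are plentiful and restrains the transcription factors TFEB and TFE3, which bind E-box sequences in the promoters of many lysosomal genes.

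In control cells the levels per length spanned a wide range. The length joins the annotated exons of all transcripts of a gene, from 1257 bases for Cd68 to 11317 for Npc1. It can exceed the length of the mRNA present, so the order and the percentiles depend in part on the annotation. In CPM per kilobase of annotated exon (mean ± SD), control total mRNA held Cd68 at 508 ± 33.8, Lamp1 at 315 ± 3.00, Laptm5 at 149 ± 15.0 and Laptm4a at 57.7 ± 5.61. On the same scale Npc2 stood at 38.0 ± 6.90, Lamp2 at 30.2 ± 0.578, Cd63 at 26.9 ± 2.54, Scarb2 at 14.4 ± 0.525, Cln3 at 13 ± 1.82 and Npc1 at 8.70 ± 1.11. Of neighbours in this order, the libraries of Scarb2 and Cln3 overlapped, from 13.8 to 14.7 and from 10.9 to 14.3 CPM per kilobase. Lamp2 and Cd63 came close, with the lowest Lamp2 library at 29.7 and the highest Cd63 library at 29.7 CPM per kilobase. Cd68 and Lamp1 were above 99.7% and 99.4% of the 10754 genes with a known length, and Npc1 above 56.1%. The plot of CPM by library shows every value of the 10 genes.

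**Figure D1:**
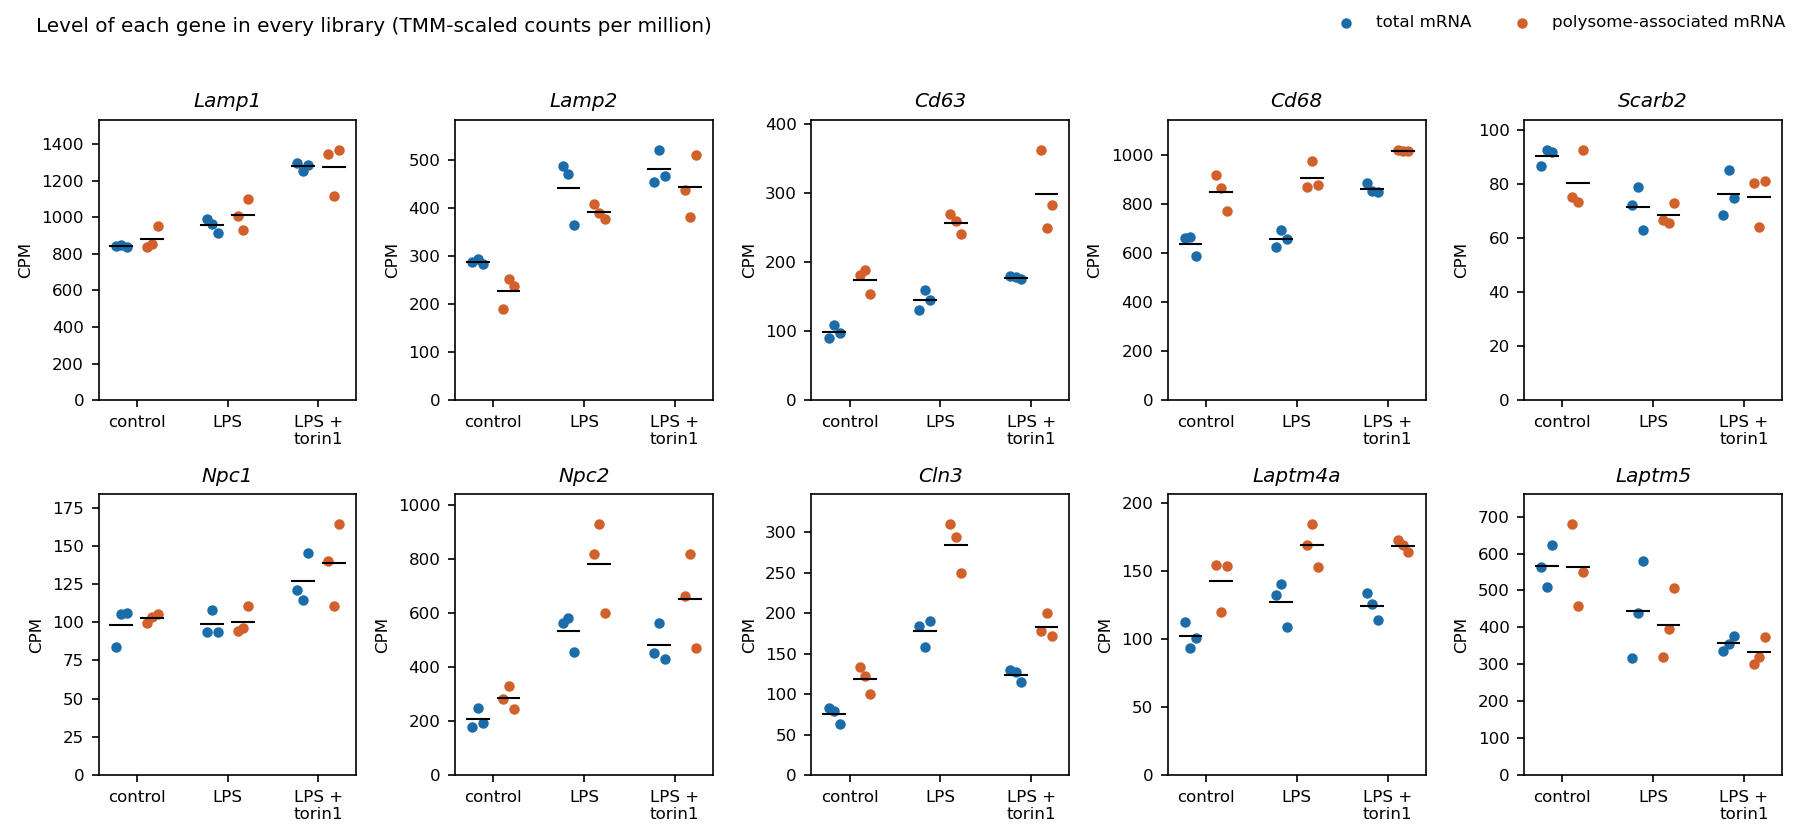
Level of each of the 10 genes in each of the 18 libraries, in TMM-scaled CPM on linear axes that start at 0. Blue points are total mRNA, orange points polysome-associated mRNA and black lines means of 3 libraries; within each RNA type, Npc2 and Cln3 stand higher in all LPS libraries than in all control libraries, and Cln3 is lower in all libraries with torin1 than in those with LPS alone.

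LAMP1 and LAMP2 are the most abundant glycoproteins of the lysosomal membrane, and LAMP2 also serves as the receptor of chaperone-mediated autophagy. In total mRNA, Lamp1 (chromosome 8, 13159161 to 13175338, plus strand, GRCm38) stood at 843, 851 and 835 CPM in control, 992, 964 and 915 CPM after LPS and 1294, 1250.5 and 1287 CPM after LPS with torin1. In polysome-associated mRNA, Lamp1 stood at 836, 855 and 953 CPM in control, 1008, 928 and 1101 CPM after LPS and 1344, 1115 and 1369 CPM with torin1 added. In total mRNA the 3 treatments formed 3 separate steps, whereas in polysome-associated mRNA the control and LPS ranges overlapped and only the torin1 libraries stood apart from both. After LPS, Lamp1 rose slightly in total mRNA (log2 fold change 0.18 ± 0.09, FDR = 0.118), a call lost without replicate 1 (FDR = 0.297) and without replicate 3 (FDR = 0.273), and it was not called in polysome-associated mRNA (log2 fold change 0.20 ± 0.15, FDR = 0.329), where it passed under some alternatives, among them without replicate 2 (FDR = 0.25) and in a model over all 18 libraries (FDR = 0.158). With torin1 added to LPS, Lamp1 rose in total mRNA (log2 fold change 0.42 ± 0.09, FDR = 0.00706) and in polysome-associated mRNA (log2 fold change 0.36 ± 0.15, FDR = 0.128), higher in 3 of 3 experiments in both. The polysome call was lost without replicate 1 (FDR = 0.496) and without replicate 3 (FDR = 0.478). Grtp1 overlaps 249 of the 2675 exonic bases of Lamp1 on the opposite strand, and the libraries were stranded, but the sources used here do not state whether the counting used the strand.

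The stretch before the Lamp1 start is shown because Lamp1 rose with torin1 and because the E-box palindrome CACGTG recurs in it; capitals mark each match. The 250 bases lie at chr8:13158911-13159160 on the plus strand (GRCm38.p6, RefSeq promoter window) and end just before the first annotated exon.
Lamp1: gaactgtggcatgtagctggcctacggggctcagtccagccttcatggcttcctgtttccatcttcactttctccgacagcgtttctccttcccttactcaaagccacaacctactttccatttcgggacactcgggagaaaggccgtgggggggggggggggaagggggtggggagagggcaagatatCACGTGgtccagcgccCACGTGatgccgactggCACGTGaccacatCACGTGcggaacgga
The 4 matches begin 61, 45, 28 and 15 bases before the start. Among 32851 promoter windows of this length, 6.02% held CACGTG at least once and 0.0213%, or 7 windows, held it 4 or more times. Among the 10924 windows of genes in the count table, from which the 10 come, these shares were 8.53% and 0.0275%. The longer palindrome TCACGTGA, which contains it and reads the same on both strands, was not found in this Lamp1 window and occurred in 0.785% of all windows and 1.51% of those of genes in the count table. A match is a description of letters and not of binding.

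In total mRNA, Lamp2 (chromosome X, 38401357 to 38456454, minus strand) stood at 287, 295 and 284 CPM in control, 488, 472 and 366 CPM after LPS and 455, 522 and 468 CPM after LPS with torin1. In polysome-associated mRNA, Lamp2 stood at 191, 252 and 238 CPM in control, 408, 390.0 and 378 CPM after LPS and 438, 383 and 511 CPM with torin1 added. Every LPS library lay above every control library in both RNA types, and the libraries with torin1 overlapped those with LPS alone. Lamp2 rose after LPS in total mRNA (log2 fold change 0.62 ± 0.12, FDR = 0.00214) and in polysome-associated mRNA (log2 fold change 0.79 ± 0.16, FDR = 0.00354). Torin1 added no called change in total mRNA (log2 fold change 0.12 ± 0.12, FDR = 0.479) or in polysome-associated mRNA (log2 fold change 0.20 ± 0.16, FDR = 0.429), with 95% intervals of -0.15 to 0.39 and -0.15 to 0.55. Without replicate 2 the polysome-associated difference passed (FDR = 0.24). The ratio of Lamp2 to Lamp1, both per exonic length, was 0.0955, 0.0970 and 0.0952 in control total mRNA, 0.138, 0.137 and 0.112 after LPS and 0.0985, 0.117 and 0.102 with torin1. All LPS libraries lay above all control libraries in this ratio, which library scaling leaves as it is. With torin1 it was lower than with LPS alone in 3 of 3 experiments. In polysome-associated mRNA the ratio was 0.0640, 0.0826 and 0.07002 in control, 0.113, 0.118 and 0.0961 after LPS and 0.0913, 0.0962 and 0.104 with torin1. There too all LPS libraries lay above all control libraries, but torin1 was lower than LPS alone in only 2 of 3 experiments, and none of these differences was tested.

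CD63 is a tetraspanin of late endosomes, lysosomes and secreted vesicles, and CD68, or macrosialin, is a LAMP-family glycoprotein used as a macrophage marker. In total mRNA, Cd63 (chromosome 10, 128900989 to 128912822, plus strand) stood at 90.8, 109 and 97.0 CPM in control, 130.3, 159 and 145 CPM after LPS and 179, 178 and 175 CPM with torin1 added. In polysome-associated mRNA, Cd63 stood at 181, 189 and 154 CPM in control, 269, 259.7 and 241 CPM after LPS and 363, 249 and 282 CPM with torin1 added. Cd63 thus formed 3 separate steps in total mRNA, while in polysome-associated mRNA replicate 2 of the torin1 group lay inside the range of LPS alone. Cd63 rose after LPS in total mRNA (log2 fold change 0.55 ± 0.11, FDR = 0.00196) and in polysome-associated mRNA (log2 fold change 0.56 ± 0.17, FDR = 0.025), in 3 of 3 experiments each. With torin1 it rose over LPS alone in total mRNA (log2 fold change 0.29 ± 0.11, FDR = 0.0627, but FDR = 0.27 without replicate 3), and the polysome-associated difference was not called (log2 fold change 0.24 ± 0.16, FDR = 0.369) unless replicate 2 was left out (FDR = 0.175). A processed pseudogene, Cd63-ps, is annotated, and how its reads were counted is not given in the sources used here.

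In total mRNA, Cd68 (chromosome 11, 69664213 to 69666153, minus strand) stood at 662, 663 and 589 CPM in control, 625, 694 and 656 CPM after LPS and 887, 851 and 848 CPM with torin1 added. In polysome-associated mRNA, Cd68 stood at 916, 863 and 772 CPM in control, 868, 976 and 878 CPM after LPS and 1021, 1015 and 1014 CPM with torin1 added. Control and LPS libraries overlapped in both RNA types, and the torin1 libraries lay above all of them. No change was called for LPS in total mRNA (log2 fold change 0.05 ± 0.10, FDR = 0.734, 95% interval -0.17 to 0.26) or in polysome-associated mRNA (log2 fold change 0.09 ± 0.14, FDR = 0.652). With torin1, Cd68 rose over LPS alone in total mRNA (log2 fold change 0.39 ± 0.10, FDR = 0.0134), in 3 of 3 experiments. In polysome-associated mRNA the difference was not called (log2 fold change 0.19 ± 0.14, FDR = 0.402), although it too was above 0 in 3 of 3 experiments.

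SCARB2, also called LIMP-2, is the receptor that brings glucocerebrosidase to lysosomes. In total mRNA, Scarb2 (chromosome 5, 92441314 to 92506833, minus strand) stood at 86.5, 92.5 and 92.0 CPM in control, 72.2, 78.8 and 63.2 CPM after LPS and 68.5, 85.3 and 74.97 CPM with torin1 added. In polysome-associated mRNA, Scarb2 stood at 75.3, 73.3 and 92.7 CPM in control, 66.7, 65.5 and 72.9 CPM after LPS and 80.4, 64.3 and 81.2 CPM with torin1 added. The LPS libraries lay below the control libraries in both RNA types, by little on polysomes, and those with torin1 overlapped both other groups there. Scarb2 fell after LPS in total mRNA (log2 fold change -0.34 ± 0.11, FDR = 0.0315; without replicate 3, FDR = 0.255) and just missed the threshold in polysome-associated mRNA (log2 fold change -0.24 ± 0.15, FDR = 0.253). It passed under some alternatives, among them without replicate 2 (FDR = 0.182), without only the polysome torin1 library of that replicate (FDR = 0.209), among genes with at least 10 counts in every library (FDR = 0.242) and in a model over all 18 libraries (FDR = 0.157). Torin1 brought no called change over LPS (log2 fold change 0.10 ± 0.11, FDR = 0.563 in total mRNA, log2 fold change 0.16 ± 0.15, FDR = 0.506 in polysome-associated mRNA).

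NPC1, the membrane arm of the sterol export route, is named for Niemann-Pick disease type C, in which cholesterol piles up in lysosomes. In total mRNA, Npc1 stood at 83.8, 105.5 and 105.9 CPM in control, 93.9, 108 and 93.7 CPM after LPS and 121, 115 and 146 CPM with torin1 added. In polysome-associated mRNA, Npc1 stood at 99.5, 103 and 105.4 CPM in control, 94.1, 96.4 and 110.4 CPM after LPS and 140.4, 110.9 and 164 CPM with torin1 added. Control and LPS libraries overlapped, and the torin1 libraries lay above the LPS libraries in both RNA types, by little in replicate 2 on polysomes. No LPS change was called in total mRNA (log2 fold change 0.00 ± 0.13, FDR = 0.988, 95% interval -0.29 to 0.29) or in polysome-associated mRNA (log2 fold change -0.04 ± 0.15, FDR = 0.888). Npc1 rose with torin1 over LPS in total mRNA (log2 fold change 0.37 ± 0.13, FDR = 0.0576) and in polysome-associated mRNA (log2 fold change 0.49 ± 0.16, FDR = 0.0615), in 3 of 3 experiments each. The call in total mRNA was lost without replicate 3 (FDR = 0.41), and that on polysomes without replicate 1 (FDR = 0.366) and without replicate 3 (FDR = 0.389). Exons of Rmc1 and of Gm15956 overlap 511 and 90 of the 11317 exonic bases of Npc1 on the opposite strand, with the same limit as for Lamp1.

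NPC2 is the soluble lumenal partner that passes cholesterol to NPC1. In total mRNA, Npc2 (chromosome 12, 84754562 to 84773152, minus strand) stood at 179, 249 and 192 CPM in control, 563, 580.4 and 456 CPM after LPS and 451, 563 and 428 CPM with torin1 added. In polysome-associated mRNA, Npc2 stood at 279.6, 329 and 245 CPM in control, 817, 928 and 599.6 CPM after LPS and 664, 817 and 471 CPM with torin1 added. All LPS libraries, with or without torin1, lay far above all control libraries, and the groups with and without torin1 overlapped. Npc2 had the highest log2 fold change of the 10 genes after LPS, in total mRNA (log2 fold change 1.37 ± 0.16, FDR = 8.33e-05, a 2.58-fold rise) and in polysome-associated mRNA (log2 fold change 1.46 ± 0.24, FDR = 0.00111, 2.75-fold). Those values exceeded 94.0% and 94.4% of all genes. In experiment 3 Cln3 rose more than Npc2, by 1.588 against 1.248 log2 units in total mRNA and by 1.324 against 1.29 on polysomes. Torin1 left no called difference from LPS alone in total mRNA (log2 fold change -0.15 ± 0.16, FDR = 0.52), but with the experiments paired Npc2 was called lower (log2 fold change -0.16, FDR = 0.233), and it was lower in 3 of 3 experiments. In polysome-associated mRNA the torin1 difference was not called either (log2 fold change -0.24 ± 0.24, FDR = 0.542), although Npc2 was again lower in 3 of 3 experiments. It passed under some alternatives, among them without replicate 2 of the polysome torin1 group (FDR = 0.193), which was chosen after seeing the data.

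After LPS the soluble sterol carrier passed the test and its membrane partner did not, and the difference between the pair was described by their ratio. Per exonic length, the ratio of Npc2 to Npc1 within a library was 4.44, 4.92 and 3.77 in control total mRNA, 12.5, 11.2 and 10.1 after LPS and 7.73, 10.2 and 6.12 with torin1. In polysome-associated mRNA the same ratio was 5.85, 6.63 and 4.84 in control, 18.1, 20.0 and 11.3 after LPS and 9.84, 15.3 and 5.97 with torin1. All LPS libraries exceeded all control libraries in this ratio, while the groups with and without torin1 overlapped in both RNA types. Within each experiment the ratio was lower with torin1 than with LPS alone, in 3 of 3 in both RNA types. Neither difference was tested.

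The stretch before the Npc2 start is set beside that of Lamp1 because Npc2 responded to LPS and had no called rise with torin1. It lies at chr12:84773153-84773362 on the minus strand (GRCm38.p6), and is the RefSeq promoter window without its 40 bases in annotated exons. It holds no CACGTG, so nothing is in capitals.
Npc2: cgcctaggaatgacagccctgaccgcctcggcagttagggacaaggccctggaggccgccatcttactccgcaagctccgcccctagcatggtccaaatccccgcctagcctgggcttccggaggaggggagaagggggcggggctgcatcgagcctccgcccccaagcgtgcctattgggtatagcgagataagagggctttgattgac
The NF-κB consensus, searched on both strands, was not found in the Npc2 window either, and 7.25% of all windows and 8.71% of those of genes in the count table held it. No match says only that these letters are absent from this window. The stretches shown were picked by how the genes responded. Cd63 and Cd68 were also called higher with torin1 in total mRNA, and their windows held no CACGTG. Whether the motif has to do with the torin1 response was not tested.

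CLN3, or battenin, is a multispanning lysosomal membrane protein whose loss causes juvenile neuronal ceroid lipofuscinosis. In total mRNA, Cln3 (chromosome 7, 126571207 to 126585817, minus strand) stood at 82.9, 79.4 and 63.2 CPM in control, 184, 159 and 190.0 CPM after LPS and 130.1, 127 and 115 CPM with torin1 added. In polysome-associated mRNA, Cln3 stood at 133, 122.97 and 99.9 CPM in control, 309.9, 295 and 250.2 CPM after LPS and 179, 200.1 and 172 CPM with torin1 added. The 3 treatments did not overlap in either RNA type: control was lowest, LPS highest and LPS with torin1 between them. Cln3 rose after LPS in total mRNA (log2 fold change 1.24 ± 0.13, FDR = 3.20e-05, 2.36-fold) and in polysome-associated mRNA (log2 fold change 1.26 ± 0.16, FDR = 0.000228). It fell with torin1 relative to LPS alone in total mRNA (log2 fold change -0.52 ± 0.13, FDR = 0.0117) and in polysome-associated mRNA (log2 fold change -0.61 ± 0.16, FDR = 0.031; without replicate 1, FDR = 0.271), in 3 of 3 experiments each, and still stood above control in total mRNA (log2 fold change 0.72 ± 0.13, FDR = 0.000884). Of the 10 genes only Cln3 and Laptm5 were called lower with torin1 than with LPS alone in total mRNA without pairing. Apobr overlaps 442 of the 5781 exonic bases of Cln3 on the opposite strand, again with that limit.

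Cln3 has RefSeq promoter windows at 2 starts. The upstream window held no CACGTG. The downstream window, which lies inside exons of other annotated Cln3 transcripts, held 2 matches. Both are shown, in capitals and with 10 bases on either side, because Cln3 carries this motif as Lamp1 does and moved the opposite way with torin1. With these added bases the stretches lie at chr7:126583370-126583395 and at chr7:126583342-126583367 on the minus strand (GRCm38.p6).
Cln3 site 1: aaccctcaagCACGTGatggaaggct
Cln3 site 2: cgggtactgtCACGTGacccccaacc
The second site extends to TCACGTGA. CACGTG occurred 2 or more times in 0.429% of all windows and in 0.806% of those of genes in the count table. Among the 9 genes whose RefSeq windows were used, all but Npc1, Lamp2, Cd63, Cd68, Scarb2, Npc2, Laptm4a and Laptm5 had no CACGTG. This covers the 250 bases before their RefSeq start. Scarb2 alone had an NF-κB consensus match, and it lies in annotated exon, as do all 250 bases of that window. Annotated exons also cover 191 bases of the Laptm5 window and 40 of the Npc2 window. The map of motif matches shows their distances from the start.

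**Figure D2:**
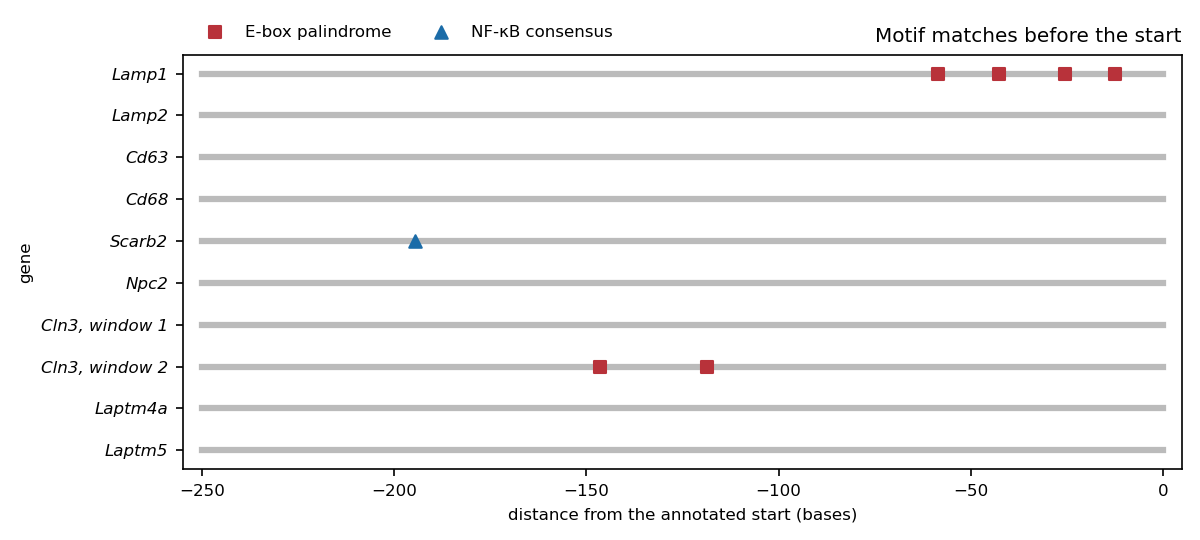
Matches to the E-box palindrome (red squares) and to the NF-κB consensus (blue triangle) in the 250 bases before each RefSeq start, with distance from the start in bases on the horizontal axis. Grey lines are the windows of 9 genes, 2 of them for Cln3; Lamp1 holds 4 E-box palindromes within 61 bases of its start, and the second Cln3 window holds 2.

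LAPTM4A and LAPTM5 are multispanning lysosomal membrane proteins, the latter restricted largely to blood cells. In total mRNA, Laptm4a (chromosome 12, 8921664 to 8938742, plus strand) stood at 112.9, 93.1 and 101.02 CPM in control, 132, 141 and 109 CPM after LPS and 134, 126 and 114 CPM with torin1 added. In polysome-associated mRNA, Laptm4a stood at 154, 120.2 and 153 CPM in control, 169, 184 and 153 CPM after LPS and 173, 169 and 164 CPM with torin1 added. Control and LPS overlapped in both RNA types, and the torin1 libraries lay within the range of LPS alone. Laptm4a rose slightly after LPS in total mRNA (log2 fold change 0.31 ± 0.12, FDR = 0.0604; without replicate 2, FDR = 0.404). In polysome-associated mRNA it was called at the edge of the threshold (log2 fold change 0.24 ± 0.15, FDR = 0.241), in 2 of 3 experiments, and lost the call without any of replicates 1, 2 and 3 (FDR = 0.418, 0.783 and 0.309). Torin1 brought no called change over LPS (log2 fold change -0.03 ± 0.12, FDR = 0.882 in total mRNA, log2 fold change 0.02 ± 0.15, FDR = 0.942 on polysomes).

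In total mRNA, Laptm5 (chromosome 4, 130913125 to 130936141, plus strand) stood at 563, 509.6 and 623 CPM in control, 316, 439 and 581 CPM after LPS and 337, 356 and 377 CPM with torin1 added. In polysome-associated mRNA, Laptm5 stood at 679, 458 and 550.2 CPM in control, 319, 395 and 507 CPM after LPS and 301, 319.7 and 375 CPM with torin1 added. The LPS libraries spread widely in both RNA types, with replicate 1 lowest and replicate 3 within the control range, whereas the torin1 libraries were close together and below all control libraries. Laptm5 was called lower after LPS in total mRNA (log2 fold change -0.34 ± 0.19, FDR = 0.159), which failed without replicate 1 (log2 fold change -0.14, FDR = 0.576) and without replicate 2 (FDR = 0.264). On polysomes the LPS call (log2 fold change -0.47 ± 0.21, FDR = 0.107) failed without replicate 1 (log2 fold change -0.16, FDR = 0.721). With torin1, Laptm5 was called lower than LPS alone in total mRNA (log2 fold change -0.32 ± 0.19, FDR = 0.224) in only 2 of 3 experiments, and the call failed without replicate 2 (FDR = 0.408), without replicate 3 (FDR = 0.701) and in a model over all 18 libraries (FDR = 0.291). On polysomes it was not called (log2 fold change -0.27 ± 0.21, FDR = 0.42).

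Counted together after LPS, 6 of the 10 genes were called higher and 2 lower in total mRNA, where 32.2% of all genes were called higher and 34.3% lower. The median log2 fold change of the 10 was 0.25, and that of all genes -0.02. In polysome-associated mRNA 5 were called higher and 1 lower, against 26.4% and 28.7% of all genes, with medians of 0.22 and -0.03. The genes called higher in both RNA types were Lamp2, Cd63, Npc2, Cln3 and Laptm4a, and at an FDR of 0.05 they were Lamp2, Cd63, Npc2 and Cln3. Laptm5 was called lower in both.

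With torin1 added to LPS, 4 of the 10 genes were called higher and 2 lower in total mRNA, where 27.3% and 26.4% of all genes were. The 4 were Lamp1, Cd63, Cd68 and Npc1, and the median of the 10 was 0.11 against 0.00 over all genes. Without replicate 3 in every group, the count of the 10 genes fell from 6 to 3 and that of all genes from 6038 to 3959. In polysome-associated mRNA 2 were called higher, Lamp1 and Npc1, and 1 lower, Cln3, against 20.3% and 18.2% of all genes, and the medians were 0.17 and 0.00. That count of 3 became 0, 5 and 1 without replicates 1, 2 and 3, while the count over all genes, 4322, became 1782, 5182 and 1187. Replicate 2 of the polysome torin1 group stood furthest from its group, at a mean absolute difference of 0.345 log2 units from the group median over all genes, and without that library, an alternative chosen after seeing the data, 6 of the 10 and 5351 of all genes were called.

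**Figure D3:**
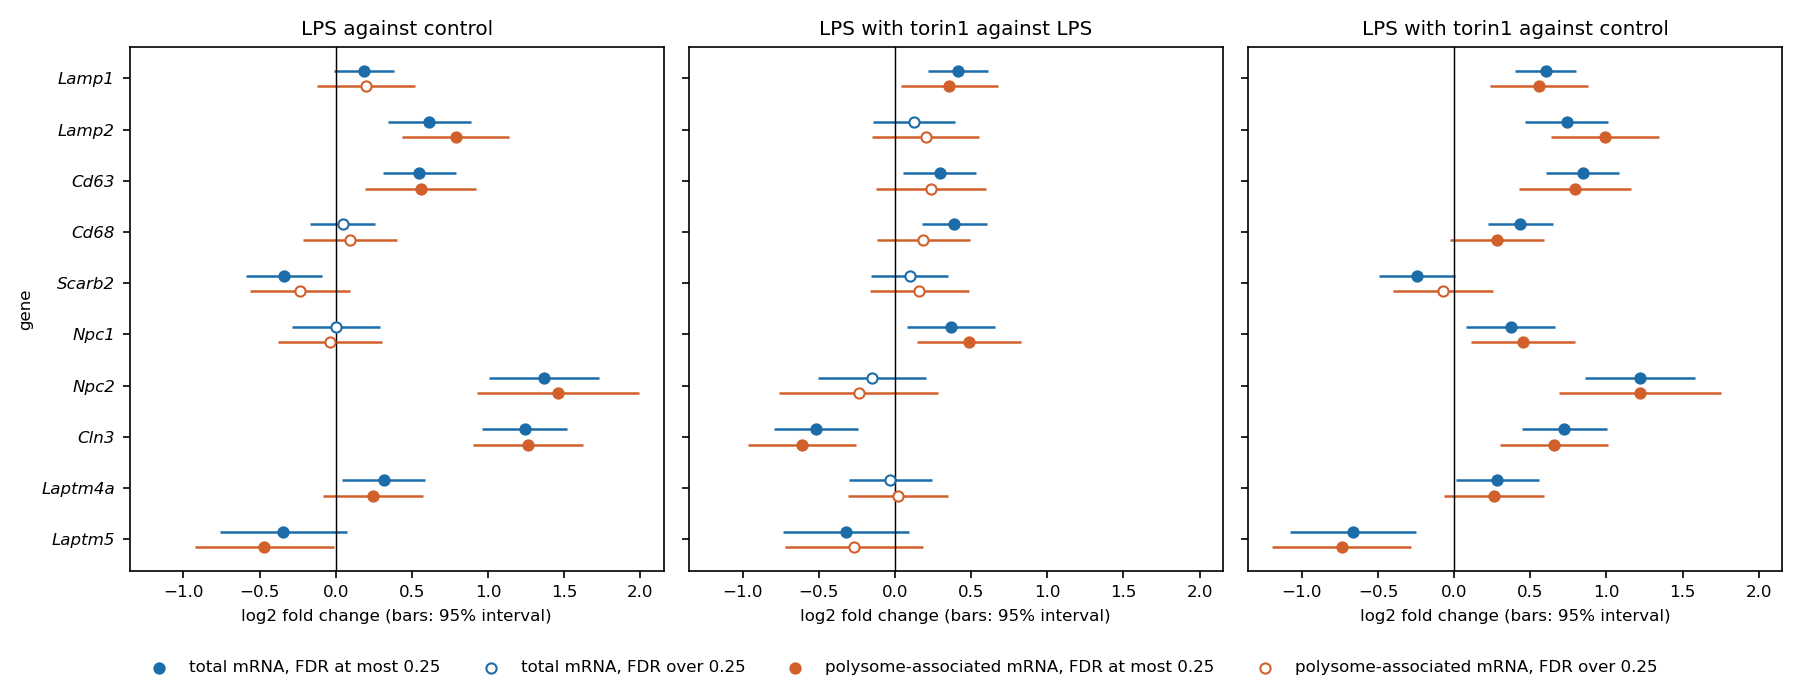
Log2 fold change of each gene with its 95% interval in 3 comparisons, blue for total and orange for polysome-associated mRNA; filled points passed an FDR of 0.25. LPS gave its highest values in Npc2 and Cln3, and torin1 added to LPS gave positive values in Lamp1, Cd63, Cd68 and Npc1 and negative values in Cln3.

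Set against control, the combination of LPS and torin1 was called for all 10 genes in total mRNA, 8 higher and 2 lower, where 33.1% and 33.6% of all genes were called. In rising order of log2 fold change the higher ones ran from Laptm4a (log2 fold change 0.28 ± 0.12, FDR = 0.0826) and Npc1 (log2 fold change 0.37 ± 0.13, FDR = 0.0383) to Npc2 (log2 fold change 1.22 ± 0.16, FDR = 0.000163). Between them lay Cd68 at 0.43, Lamp1 at 0.60, Cln3 at 0.72, Lamp2 at 0.74 and Cd63 at 0.84. Scarb2 (log2 fold change -0.24 ± 0.11, FDR = 0.101) and Laptm5 (log2 fold change -0.67 ± 0.19, FDR = 0.014) were lower. The call of Scarb2 failed without replicate 1 (FDR = 0.303) and without replicate 3 (FDR = 0.31), and that of Laptm4a without replicate 2 (FDR = 0.309). On polysomes 8 genes were called higher and Laptm5 lower (log2 fold change -0.74 ± 0.21, FDR = 0.0179), against 28.5% and 29.7% of all genes, and Scarb2 was not called (log2 fold change -0.07 ± 0.15, FDR = 0.725). Of these, Laptm4a (log2 fold change 0.26 ± 0.15, FDR = 0.193) failed without any of replicates 1, 2 and 3 (FDR = 0.369, 0.443 and 0.33). Cd68 (log2 fold change 0.28 ± 0.14, FDR = 0.141) failed without replicate 1 (FDR = 0.305) and without replicate 3 (FDR = 0.527), and Npc1 without replicate 3 (FDR = 0.32). This comparison shares its control libraries with that of LPS against control and its torin1 libraries with that of torin1 against LPS, so the 3 are not independent of each other.

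Before treatment the 10 genes differed in their share on heavy polysomes. In control lysates the log2 ratio of polysome-associated to total CPM was 0.99, 0.79 and 0.66 for Cd63. The same ratio was 0.68, 0.63 and 0.66 for Cln3. For Lamp2 it was -0.59, -0.23 and -0.25. By the mean of the 3 lysates, Cd63 was the gene most shifted towards heavy polysomes and Lamp2 the one most shifted away. In the lysate of replicate 2, Scarb2 (-0.335) lay below Lamp2 (-0.225). These shifts are relative to the average gene, since scaling removes any shift common to all genes. By edgeR, 5 of the 10 were called higher on polysomes and 1 lower in control cells, where 36.3% and 33.2% of all genes were called. The higher ones were Cd63 (log2 fold change 0.82 ± 0.14, FDR = 0.000309), Cln3 (log2 fold change 0.66 ± 0.14, FDR = 0.00139), Laptm4a (log2 fold change 0.48 ± 0.13, FDR = 0.00693), Npc2 (log2 fold change 0.46 ± 0.21, FDR = 0.0758) and Cd68 (log2 fold change 0.42 ± 0.10, FDR = 0.00422), and the lower one was Lamp2 (log2 fold change -0.35 ± 0.14, FDR = 0.0485). Without replicate 1, the calls of Npc2 (FDR = 0.383) and Lamp2 (FDR = 0.356) failed. Scarb2 was not called (log2 fold change -0.17 ± 0.13, FDR = 0.293) but passed with total and polysome-associated mRNA paired by lysate (FDR = 0.244), with DESeq2 size factors (FDR = 0.24) and without replicate 3 (FDR = 0.228). Lamp1, Npc1 and Laptm5 were not called.

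Translation efficiency, the level on polysomes relative to total mRNA, was compared between treatments by the interaction of treatment and RNA type. None of the 10 genes was called for LPS against control or for torin1 against LPS, and 0% of all 11243 genes were called in either comparison by edgeR. At an unadjusted p under 0.05 by edgeR there were 44 genes for LPS and 110 for torin1, none of them among the 10. Both counts lie below a share of 0.05 of all genes, which would be reached without any real difference. This test, which left the lysates unpaired, was therefore strict. DESeq2 called 1 and 13 of all genes, pairing by lysate 0 and 25, and an analysis of partial variance 13 and 24, again with none of the 10. At p under 0.05, pairing gave 164 and 303 genes and the analysis of partial variance 715 and 698, none of them among the 10. For the LPS response by edgeR, the interaction of Npc2 was 0.09 (95% interval -0.53 to 0.71) and that of Cln3 0.02 (95% interval -0.39 to 0.44), on the log2 scale. The highest and lowest of the 10 were Lamp2 at 0.17 (95% interval -0.24 to 0.59) and Laptm5 at -0.12 (95% interval -0.74 to 0.49). The analysis of partial variance, which compares polysome levels after adjusting for total mRNA with a slope for each gene, gave values outside these intervals for Lamp2, at 0.83 (FDR = 0.779), and for Cln3, at 0.56 (FDR = 0.908). Outside the edgeR interval it also put Cd63, at 0.49 (FDR = 0.889) where edgeR gave 0.01 (95% interval -0.40 to 0.42). In the other direction it put Scarb2, at -0.46 (FDR = 0.797) where edgeR gave 0.11 (95% interval -0.28 to 0.49). The slopes were not limited and are not given here, and a slope near or below 0 does not take out the change in total mRNA. The value of Lamp2 was close to its change on polysomes alone, 0.79. That of Scarb2 was further from 0 than its change on polysomes, -0.24. Over all alternatives the FDR ran from 0.779 to 1 for Lamp2, 0.908 to 1 for Cln3, 0.889 to 1 for Cd63 and 0.797 to 1 for Scarb2. The size of these interactions depended on the method, and none was called by the tools run here. These did not include anota2seq, the tool of the study, and the analysis of partial variance was written from its description. With anota2seq the paper names Lamp2 and Cln3 among the few lysosomal mRNAs significant for translation efficiency. The results here differ from the paper for both genes, and the cause was not tested. The signs of the Npc2 and Cln3 interactions changed when single replicates were left out. Intervals this wide do not show that translation efficiency stayed level.

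Of the interactions of torin1 by edgeR, that of Cd68 was furthest from 0, and it is described because its lysates did not overlap, which was seen in the values first. The log2 ratio of polysome-associated to total Cd68 was 0.47, 0.38 and 0.39 in control lysates, 0.47, 0.49 and 0.42 after LPS and 0.20, 0.25 and 0.26 with torin1 added. All lysates with torin1 lay below all others. The interaction was -0.23 ± 0.15 (95% interval -0.54 to 0.09), with an unadjusted p of 0.144 and FDR = 1 by edgeR. With lysates paired, the unadjusted p was 0.0992 and FDR = 0.993, so the smaller rise of Cd68 on polysomes than in total mRNA was not established. The analysis of partial variance gave -0.26 for Cd68 (FDR = 0.946) and put only Lamp1 outside its edgeR interval, at 0.48 (FDR = 0.963) where edgeR gave -0.08 (95% interval -0.41 to 0.25). The limit of the slopes holds here too, since the change of Lamp1 on polysomes alone was 0.36. Over all alternatives the FDR ran from 0.946 to 1 for Cd68 and from 0.963 to 1 for Lamp1. The 10 genes had a median interaction of -0.03, against -0.02 over all genes.

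**Figure D4:**
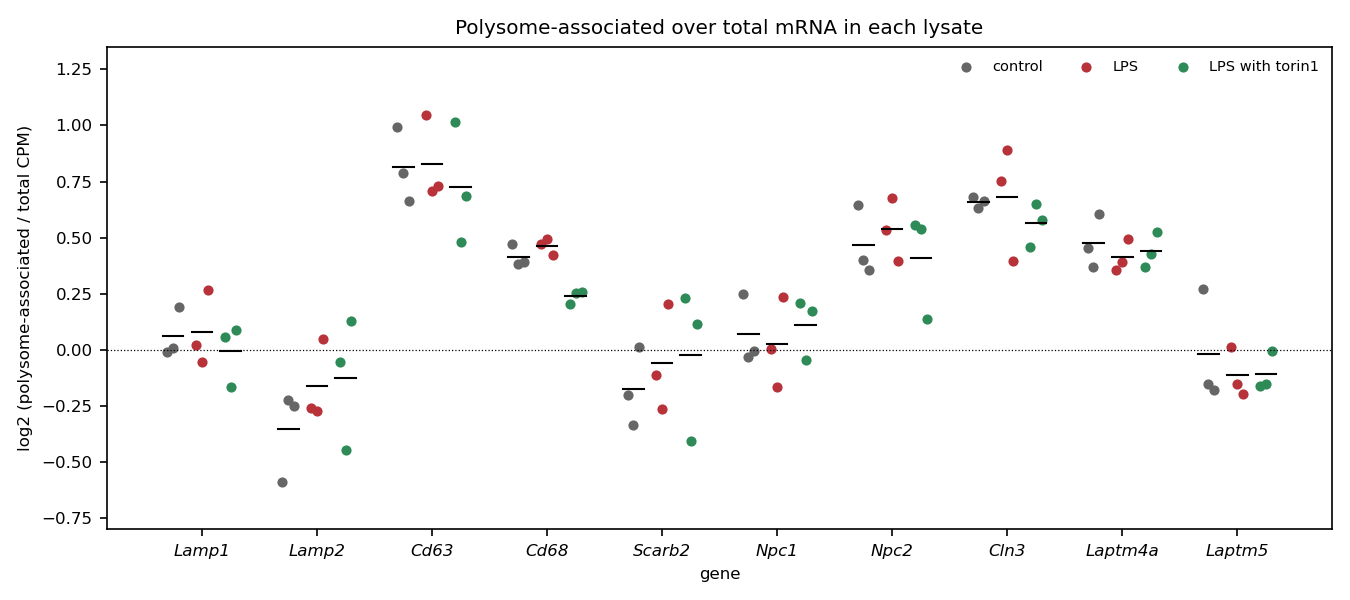
Log2 ratio of polysome-associated to total CPM in each of the 9 lysates for the 10 genes, coloured by treatment, with black lines at group means; 0 marks the average gene. Cd63 and Cln3 lie above 0 in every lysate, and Cd68 is lower in the 3 lysates with torin1 than in the other 6.

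The genes of the table whose profile came closest to each of the 10 were found by the root mean square difference of gene-centred log2 CPM over the 18 libraries. Npc2, whose own values varied by 0.701 log2 units around their mean, was closest to Gtpbp2 (0.176 log2 units) and Chmp4b (0.188). Cln3, varying by 0.619, was closest to Asb1 (0.177) and Stx6 (0.180). Cd63, varying by 0.535, was closest to Atp6v0d1 (0.126) and Gabarapl1 (0.142). These 3 genes varied more than the other 7, so their distances tell more. Lamp2 was closest to Rab5a (0.103) and Tlr7 (0.124), Lamp1 to Abhd10 (0.0970) and Rbm45 (0.0990), and Cd68 to Rab24 (0.0910) and Spryd3 (0.0960). Npc1 was closest to Spg11 (0.134) and Ift52 (0.139), Scarb2 to Ctps2 (0.128) and Kat7 (0.133). Laptm4a was closest to Cers2 (0.114) and Plekhb2 (0.118), and Laptm5 to Nt5dc3 (0.146) and Rundc1 (0.151). Within the 10, the closest pair was Lamp1 and Npc1 at 0.148, where Lamp1 ranked 6 among all genes by distance from Npc1 and Npc1 ranked 18 by distance from Lamp1, and for the other 8 the nearest of the 10 ranked from 54 to 1157. The 10 genes thus did not share a single profile.

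Other lysosomal genes give the 10 a setting, in total mRNA. Their counts are to be read against all genes, of which 32.2% were called higher and 34.3% lower after LPS, and 27.3% higher and 26.4% lower with torin1 against LPS. Among lysosomal membrane transporters, channels and other membrane proteins, 15 of 38 genes were called higher and 10 lower (median log2 fold change 0.08) after LPS, and 22 of 38 genes were called higher and 4 lower (median log2 fold change 0.30) when torin1 was added. The peptide transporter gene Slc15a3 rose most with LPS (log2 fold change 3.98 ± 0.22, FDR = 8.80e-07) and the cation channel gene Tpcn1 fell most (log2 fold change -1.37 ± 0.25, FDR = 0.00133), while the chloride exchanger gene Clcn7 rose with torin1 (log2 fold change 1.33 ± 0.15, FDR = 0.000251). Among genes of lysosomal lipid and sterol handling, the role of Npc1 and Npc2, 6 of 20 genes were called higher and 8 lower (median log2 fold change -0.12) after LPS. With torin1, 10 of 20 genes were called higher and 5 lower (median log2 fold change 0.16), these 15 calls dropping to 7 without replicate 3. Stard3, for a sterol carrier of the late endosome, rose with LPS (log2 fold change 1.08 ± 0.15, FDR = 0.000281) as Npc2 did. Tmem97, whose product binds NPC1, fell with LPS (log2 fold change -0.49 ± 0.09, FDR = 0.00151) and again with torin1 (log2 fold change -0.91 ± 0.09, FDR = 0.000198).

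Among tetraspanins other than Cd63, 7 of 13 genes were called higher and 5 lower (median log2 fold change 0.23) after LPS, and 3 of 13 genes were called higher and 7 lower (median log2 fold change -0.36) with torin1. Cd82 (log2 fold change 1.14 ± 0.17, FDR = 0.000407) and Cd53 (log2 fold change 1.05 ± 0.13, FDR = 0.000134) had the highest values with LPS. With torin1, Cd9 rose (log2 fold change 0.75 ± 0.11, FDR = 0.00125) as Cd63 did, and Tspan4 fell (log2 fold change -0.92 ± 0.17, FDR = 0.00352). Among genes of delivery to lysosomes, 6 of 12 genes were called higher and 2 lower (median log2 fold change 0.16) after LPS, or 5 in all without replicate 3, and 6 of 12 genes were called higher and 2 lower (median log2 fold change 0.21) with torin1. M6pr, for the cation-dependent mannose 6-phosphate receptor, rose with LPS (log2 fold change 0.74 ± 0.12, FDR = 0.000457) and fell with torin1 relative to LPS (log2 fold change -0.46 ± 0.11, FDR = 0.0137), the order that Cln3 showed.

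The rest of the lysosome pathway shared 13 genes with the membrane list, 5 with the lipid list and 12 with the delivery list. In it, 38 of 103 genes were called higher and 29 lower (median log2 fold change 0.05) after LPS, and 58 of 103 genes were called higher and 15 lower (median log2 fold change 0.29) with torin1. After LPS these shares lay near those over all genes. Ctsc, for the protease cathepsin C, rose with LPS (log2 fold change 2.47 ± 0.21, FDR = 1.02e-05) and fell with torin1 (log2 fold change -1.74 ± 0.20, FDR = 0.000333), also in the order of Cln3. Acp5 rose with torin1 (log2 fold change 2.06 ± 0.34, FDR = 0.00203). The 10 genes had medians of 0.25 and 0.11 in these comparisons, and the plot of lists shows them beside each list and all genes.

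**Figure D5:**
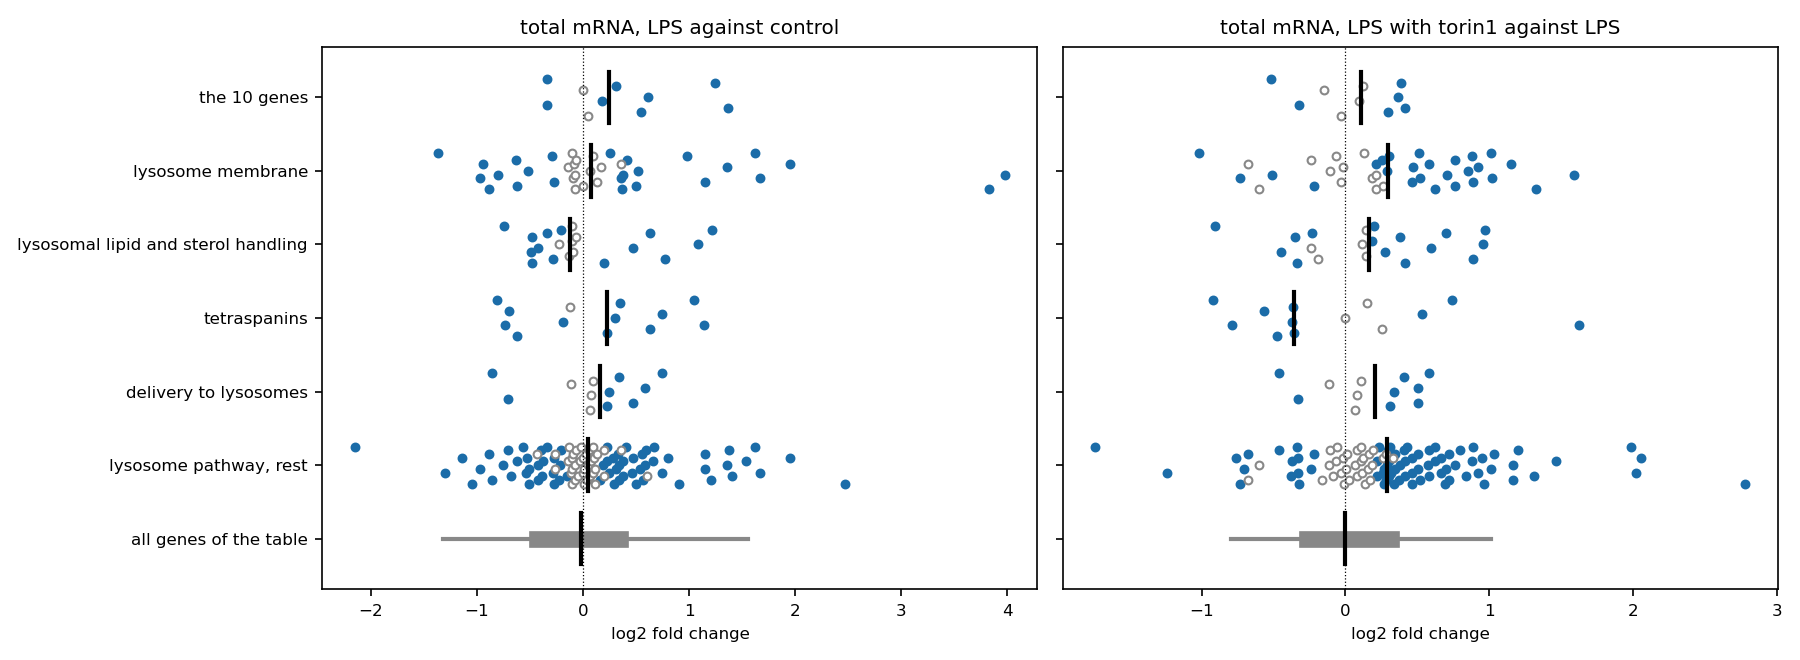
Log2 fold change in total mRNA of the 10 genes and of the genes of 5 other lysosomal lists, for LPS against control (left) and LPS with torin1 against LPS (right); filled points passed an FDR of 0.25 and black bars are medians. The bottom row gives all genes as the middle 50% (thick grey) and 90% (thin grey); the right panel shows positive medians for each list but tetraspanins.

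With 3 experiments per group and an FDR threshold of 0.25, many of the smaller calls among the 10 genes rested on single experiments, as given beside them. The rises of Lamp2, Cd63, Npc2 and Cln3 after LPS passed in both RNA types without any of replicates 1, 2 and 3.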

How the data were processed

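Raw counts per gene in 18 libraries, total and polysome-associated mRNA of 9 lysates, were used as deposited by the authors: Hisat2 alignment to GRCm38, featureCounts with the Ensembl annotation in the nextflow RNAseq pipeline, protein-coding genes only, and genes with 0 counts in any sample removed. They were tested with edgeR 4.0.16 in R 4.3.3 (quasi-likelihood F test, TMM scaling, Benjamini-Hochberg over 11243 genes, FDR of 0.25 as in the study's methods), with 9 libraries per RNA type, or with all 18 for translation efficiency and for polysome-associated against total mRNA.

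Alternatives were DESeq2 1.42.0 size factors and Wald test, a minimum of 10 counts in every library, an FDR of 0.05, the replicate block, 1 model over 18 libraries, leaving out each replicate, and, for translation, an analysis of partial variance with limma 3.58.1. Leaving out 1 polysome library was chosen after seeing the data. Each test was checked on simulated data.

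The members and lists were chosen with earlier results of these data known. Named from each other list were up to 2 genes with the highest and 2 with the lowest log2 fold change among those past the threshold, and for each of the 10 genes the 2 nearest profiles. Per-length levels used GENCODE exon lengths joined over all transcripts, and the annotation version of the authors is not given in the sources used here. These lengths set the absolute size of ratios between genes, but not how a ratio changes between groups. Promoter windows came from RefSeq (GRCm38.p6) and were used for 9 of the 10 genes. That of Npc1 was left out, so nothing is said here of its promoter.

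Pairing by experiment number was checked by correlating each library's deviations from its group mean across genes, where genes are not independent replicates. Libraries of the same number correlated at 0.149 to 0.424 (mean 0.335) in total mRNA, over 0.1 in 9 of 9 pairs. Total with polysome-associated mRNA of the same lysate gave 0.389 to 0.649 (mean 0.480), also in 9 of 9 pairs, so values with these pairings stand beside the results they change. Polysome-associated libraries of the same number across treatments gave over 0.1 in 5 of 9 pairs.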

Additional observations from a re-analysis of the deposited data

How the results depend on the processing

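The rises of Lamp2, Cd63, Npc2 and Cln3 after LPS, in total and polysome-associated mRNA, and those of Lamp1 and Cd68 with torin1 in total mRNA kept their direction and their side of the threshold under all alternatives run. Changing the scaling to DESeq2 size factors moved the median log2 fold change of all genes by less than 0.1 in each comparison.

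An FDR of 0.05 in place of 0.25 is stricter by construction. In total mRNA it left 5 of the 10 genes and 5132 of all genes after LPS, and 3 of the 10 and 3279 of all genes with torin1 against LPS. In polysome-associated mRNA it left 3654 of all genes after LPS, 1557 with torin1 against LPS, where 1 of the 10 passed, and 3950 with LPS and torin1 against control.

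For translation efficiency after LPS, where edgeR called 0 genes, the DESeq2 Wald test called 1 and the analysis of partial variance 13. With torin1, edgeR called 0, the DESeq2 Wald test 13, the replicate block 25 and the analysis of partial variance 24. The cause was not tested.

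The replicate block, the experiment number as a term, called Npc2 lower with torin1 in total mRNA (FDR = 0.233). In polysome-associated mRNA, where deviations of the same experiment number went together in only 5 of 9 pairs, it called Lamp1 (FDR = 0.211) and Scarb2 (FDR = 0.157) after LPS and Npc2 with torin1 (FDR = 0.175), which raised the counts of the 10 genes from 6 to 8 and from 3 to 4. The counts of all genes rose as well, from 6191 to 7062 and from 4322 to 5587. The cause was not tested.

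Leaving out a replicate leaves fewer libraries by construction. The counts over all genes then ranged from 3901 to 7251 in polysome-associated mRNA after LPS, from 3959 to 5385 in total mRNA with torin1 against LPS, from 1187 to 5351 in polysome-associated mRNA with torin1 against LPS and from 4156 to 7627 there against control. Of the 10 genes, 3 to 6 passed with torin1 against LPS in total mRNA and 0 to 6 in polysome-associated mRNA. The highest of these last counts came without replicate 2 of the polysome torin1 group, an alternative chosen after seeing the data.

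Signs changed only for log2 values that passed no test, and the cause was not tested. After LPS in total mRNA, Npc1 was -0.001 with at least 10 counts in every library, and leaving out replicates gave Npc1 -0.053 to 0.094 and Cd68 -0.007 to 0.121. With torin1 against LPS, leaving out replicates gave Laptm4a -0.072 to 0.041 in total mRNA and Laptm4a -0.013 to 0.086 in polysome-associated mRNA, where 1 model over 18 libraries gave Laptm4a -0.002. With torin1 against control in polysome-associated mRNA it gave Scarb2 -0.161 to 0.018, the latter without replicate 2 of the torin1 group, and 0.006 without replicate 3.

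For translation efficiency after LPS, Cd63 turned to -0.004 with DESeq2 size factors and -0.004 with its Wald test, and the analysis of partial variance gave Scarb2 -0.462, Npc2 -0.247 and Laptm4a 0.012. Leaving out replicates gave Lamp1 -0.013 to 0.053, Cd63 -0.032 to 0.056, Npc1 -0.183 to 0.034, Npc2 -0.027 to 0.165 and Cln3 -0.091 to 0.161. With torin1 the analysis of partial variance gave Lamp1 0.483, Cd63 0.157 and Laptm5 -0.048, and leaving out replicates gave Scarb2 -0.064 to 0.126, Cln3 -0.262 to 0.016 and Laptm5 -0.075 to 0.143. In control cells, polysome-associated against total mRNA without single replicates gave Npc1 -0.011 to 0.111, Laptm5 -0.159 to 0.083 and Lamp1 -0.003 to 0.109.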
